A study of Rattus norvegicus with 78 samples.

Results

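The potassium channel genes of the rat brain were examined in 2 brain regions, the prefrontal/frontal cortex (P/FC) and the hippocampus (HIP), of Flinders Sensitive Line (FSL) and Flinders Resistant Line (FRL) rats. A gene was counted as a member where its symbol in the array annotation starts with Kcn and where its brightest probeset, the set of short oligonucleotides that reads 1 transcript, had a mean intensity above 30 over the 78 arrays. This gave 57 members out of 75 annotated Kcn genes with 126 probesets, among 14217 genes named on the array. By the start of the symbol, 27 members encode voltage-gated subunits, 11 inward rectifiers, 8 two-pore channels, 3 calcium- or sodium-activated channels and 8 auxiliary or regulatory subunits. Just inside the limit lay Kcnj8 with a mean of 31.8, Kcnh6 with 31.9 and Kcnj15 with 32.1, and just outside it lay Kcne4 with 29.8, Kcne3 with 27.98 and Kcnh8 with 27.5.

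The lines were bred selectively from Sprague-Dawley rats for high (FSL) or low (FRL) sensitivity to an anticholinesterase, and FSL was later put forward as a model of depression with FRL as its control. Adult males of both were used, all of which had gone through a forced swim test a week before the tissue was taken. Cohort 1 held 9 FSL and 12 FRL rats, and cohort 2, set up 6 months later, held 8 FSL and 10 FRL rats. HIP and the whole frontal lobe of the right hemisphere were arrayed, which gave 39 arrays a region, and the labels name no drug treatment. Neither the pairs of arrays from 1 rat nor the labelling batches are given in the labels, and some of their free text mistypes the line, so that the line was read from the sample titles. The array median ranged from 60.8 to 65.96 in P/FC and from 56.8 to 63.0 in HIP. The granule cell marker Prox1 was higher in HIP, with 101 to 147 in P/FC and 338 to 511 in HIP, and the upper layer marker Cux2 was higher in P/FC, with 106 to 355 in P/FC and 15.3 to 87.1 in HIP. Levels of tissue markers also varied within regions. The summed intensity of 10 striatum markers ran from 2080 to 7322 over the P/FC arrays, and the choroid plexus transcript Ttr from 29.4 to 13151 over the HIP arrays. These are bulk samples, in which fewer cells of a type and less RNA per cell cannot be told apart.

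Potassium channels let potassium ions leave or enter a cell and thereby set its resting potential, end its action potentials and shape its firing rate. Voltage-gated channels open on depolarisation, inward rectifiers and two-pore channels carry current near rest, and calcium- or sodium-activated channels answer to ions that enter during activity. Auxiliary subunits bind the pore-forming proteins and change their gating or their number at the membrane. In the hippocampus and the cortex the dendritic A-type current, a fast transient current that damps incoming excitation, is carried mainly by channels of the Kcnd (Kv4) family.

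In P/FC, 5 of the 56 members that could be tested were higher in FSL than in FRL rats over both cohorts and 1 was lower, in a fit across all probesets with limma and an adjusted p (Benjamini-Hochberg) under 0.05. The Kv4 genes Kcnd2 and Kcnd3, the silent subunit Kcns2, the inward rectifier Kcnj12 and the beta subunit Kcnab1 were higher, and Kcnh3, an ether-a-go-go-like (Elk) channel of forebrain neurons, was lower. The members' share of 10.7% lay under the 18.6% of all 22370 probesets that were called. Of all probesets 9.76% were higher and 8.86% lower. The median difference over the members was 0.03 on the log2 scale, and over all probesets it was 0.00. At an unadjusted p under 0.05, 13 of the 56 (23.2%) passed, against 31.8% of all. A p that misses the threshold, as for the other 50 members, does not show that the lines were alike.

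The 250 bases before the annotated start of the pair of Kv4 genes that were higher together, and of Kcna2, the member called in HIP, are shown to place them in the genome. They were taken from RefSeq (GRCr8), where 39 of the 57 members had an entry, and capitals mark the GC box (GGGCGG, or CCGCCC on the other strand). Kcnd2 lies on chr4:50742235-50742484, Kcnd3 on chr2:195626066-195626315 and Kcna2 on chr2:197393280-197393529, all on the plus strand.
Kcnd2: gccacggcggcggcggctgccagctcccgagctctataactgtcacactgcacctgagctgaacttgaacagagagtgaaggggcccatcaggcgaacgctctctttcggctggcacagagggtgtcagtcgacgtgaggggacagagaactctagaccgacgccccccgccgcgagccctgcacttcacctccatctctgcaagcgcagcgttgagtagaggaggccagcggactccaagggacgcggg
Kcnd3: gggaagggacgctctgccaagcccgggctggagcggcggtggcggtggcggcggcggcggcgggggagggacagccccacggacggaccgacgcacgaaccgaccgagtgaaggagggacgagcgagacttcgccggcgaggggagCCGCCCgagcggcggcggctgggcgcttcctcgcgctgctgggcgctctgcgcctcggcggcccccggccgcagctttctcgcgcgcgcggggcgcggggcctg
Kcna2: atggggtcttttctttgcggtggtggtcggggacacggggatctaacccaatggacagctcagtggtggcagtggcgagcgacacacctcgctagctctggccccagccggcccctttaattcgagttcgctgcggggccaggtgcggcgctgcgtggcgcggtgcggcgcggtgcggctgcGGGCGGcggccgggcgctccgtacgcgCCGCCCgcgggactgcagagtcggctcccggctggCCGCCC
The Kcnd2 window held no GC box, the Kcnd3 window 1 and the Kcna2 window 3, and their GC contents were 64%, 79.6% and 72.4%. A GC box was found in 56.8% of the 44 entries of members and in 30.5% of all 33469 promoter entries, whose median GC content was 51.2%, against 65% for the members. The TATA box (TATAAA, or TTTATA on the other strand) was found in 0 of the 44 entries and in 12.9% of all, the E-box (CACGTG) in 2.27% and 5.59%, and the core of the CRE (TGACG, or CGTCA) in 13.6% and 18.2%. The windows shown held none of these 3 motifs. These matches describe letters in a window, and binding was not measured.

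Kcnd2 (Kv4.2), the main pore-forming subunit of the dendritic A-type current in hippocampal pyramidal cells, ran from 419 to 582 with a median of 476 in FSL rats and from 318 to 529 with a median of 382 in FRL rats in P/FC of cohort 1. In cohort 2 it ran from 340.5 to 565 with a median of 432 in FSL rats and from 294 to 532 with a median of 326 in FRL rats. The ranges overlapped, but all 9 FSL arrays of cohort 1 and all 8 of cohort 2 lay above the FRL median of their cohort. The difference was 0.28 ± 0.07 on the log2 scale (SE, adjusted p = 0.0072 in limma), with 0.31 in cohort 1 and 0.24 in cohort 2. In HIP it was 0.01 ± 0.05 (adjusted p = 0.92). The P/FC change exceeded the HIP change by 0.27 ± 0.09, the smallest p of any member for that difference, although the adjusted p was 0.41.

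Kcnd3 (Kv4.3), which carries A-type current in interneurons and other cells, ran from 195 to 253 with a median of 233 in FSL rats and from 175 to 251 with a median of 206 in FRL rats in P/FC of cohort 1. In cohort 2 it ran from 196 to 269 with a median of 225 in FSL rats and from 181 to 235 with a median of 206 in FRL rats. The groups overlapped widely, with 7 of 9 and 7 of 8 FSL arrays above the FRL median. The difference was 0.14 ± 0.05 (adjusted p = 0.027) and of the same size in the cohorts, 0.14 in each. In HIP it was -0.03 ± 0.04 (adjusted p = 0.72). Kcnd1, the third Kv4 gene, differed by -0.07 in P/FC (adjusted p = 0.29) and by 0.03 in HIP (adjusted p = 0.67).

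Kcnh3 was the only member lower in P/FC of FSL rats by the test. It ran from 350 to 579 with a median of 511 in FSL rats and from 498 to 826 with a median of 612 in FRL rats of cohort 1, and from 481 to 531 with a median of 499 in FSL rats and from 512 to 723 with a median of 565 in FRL rats of cohort 2. All 9 and all 8 FSL arrays lay below the FRL median of their cohort, although the ranges overlapped. The difference was -0.30 ± 0.06 (adjusted p = 0.0013), with -0.37 in cohort 1 and -0.22 in cohort 2. It kept its call in P/FC under every alternative that was run for it. In HIP it differed by -0.15 ± 0.05, short of the threshold (adjusted p = 0.055), with -0.06 in cohort 1 and -0.24 in cohort 2. Kcnh1, an ether-a-go-go channel, differed by 0.11 in P/FC (adjusted p = 0.11), and Kcnh2, the erg channel, by 0.10 (adjusted p = 0.44).

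Kcns2 (Kv9.2), a subunit that forms no channel alone and modifies Kcnb channels, ran from 43.2 to 73.7 with a median of 55.5 in FSL rats and from 33.4 to 67.0 with a median of 52.0 in FRL rats in P/FC of cohort 1. In cohort 2 it ran from 53.2 to 85.2 with a median of 65.9 in FSL rats and from 29.3 to 66.3 with a median of 42.5 in FRL rats. The lines were thus further apart in cohort 2, where all 8 FSL arrays lay above the FRL median. The difference was 0.38 ± 0.10 over both cohorts (adjusted p = 0.0052), the largest among the members, with 0.18 ± 0.13 in cohort 1 and 0.57 ± 0.14 in cohort 2. Its relative Kcns1 (Kv9.1) differed by -0.46 in cohort 1 (adjusted p = 0.051) and by 0.09 in cohort 2 (adjusted p = 0.82), and over both cohorts it did not pass.

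Kcnj12 (Kir2.2), a strong inward rectifier that holds cells near rest, ran from 37.2 to 64.8 with a median of 51.7 in FSL rats and from 33.6 to 65.8 with a median of 42.0 in FRL rats in P/FC of cohort 1, and from 44.0 to 63.2 with a median of 48.7 in FSL rats and from 25.4 to 48.7 with a median of 40.3 in FRL rats of cohort 2. The ranges overlapped in both cohorts, with 7 of 9 and 8 of 8 FSL arrays above the FRL median. The difference was 0.33 ± 0.09 (adjusted p = 0.0068). In HIP its intensity was too low for the filter, at 16.1 to 36.5, and it was not tested.

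Kcnab1 (Kv beta 1), which speeds the inactivation of Kcna channels, ran from 407 to 655 with a median of 501 in FSL rats and from 248 to 523 with a median of 404 in FRL rats in P/FC of cohort 1. In cohort 2 it ran from 370.5 to 539 with a median of 422 in FSL rats and from 276 to 507 with a median of 393 in FRL rats. All 9 FSL arrays of cohort 1 lay above the FRL median, but 5 of 8 in cohort 2. The difference was 0.25 ± 0.08 (adjusted p = 0.024), with 0.38 in cohort 1 and 0.13 in cohort 2.

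**Figure D1:**
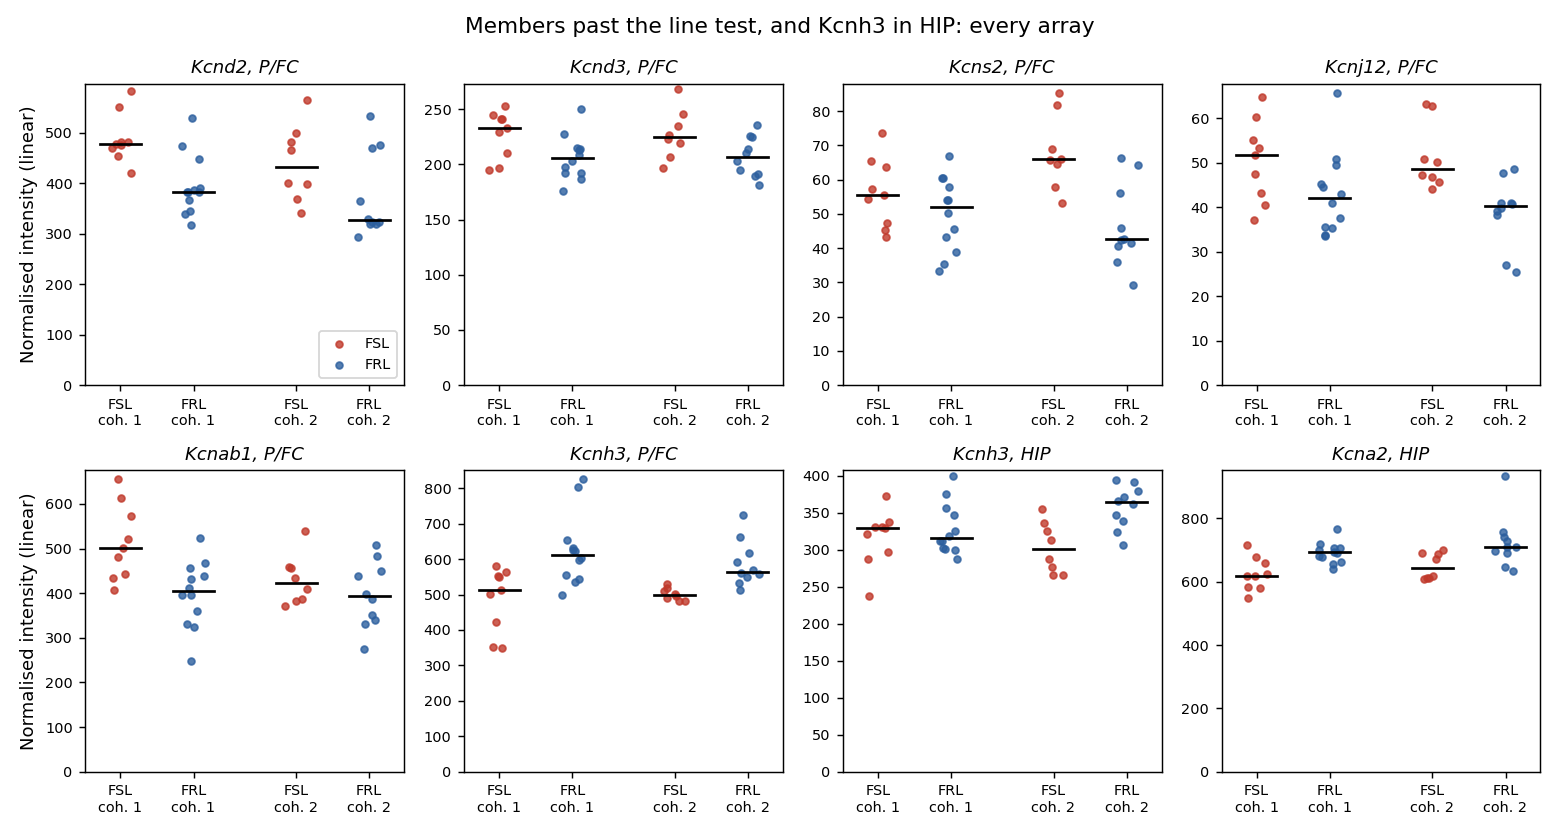
Each point is the normalised intensity of 1 array on a linear axis from 0, for the 6 members called in P/FC, for Kcnh3 in HIP and for Kcna2, called in HIP, with FSL in red and FRL in blue, by cohort (coh.), and a bar at each group's median. In P/FC all FSL arrays of Kcnd2 lie above, and all FSL arrays of Kcnh3 below, the FRL median of their cohort, while FSL and FRL overlap in every panel and cohort.

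By subfamily, 3 of the 27 voltage-gated members tested in P/FC rose and 1 fell, 1 of 10 inward rectifiers rose, 0 of 8 two-pore and 0 of 3 calcium- or sodium-activated members were called, and 1 of 8 auxiliary members rose. For the groups with no call, the counts at an unadjusted p under 0.05 were 1 of the 8 two-pore members and 1 of the 3 calcium- or sodium-activated members. Over all probesets 18.6% were called, 9.76% higher and 8.86% lower, and 31.8% passed the unadjusted p. The voltage-gated share called was 14.8%, under that of all probesets. The subfamily medians were 0.09 for voltage-gated, 0.02 for inward rectifier, 0.03 for two-pore, -0.02 for calcium- or sodium-activated and -0.02 for auxiliary members. The differences of the 56 members lay between -0.30 and 0.38. The FSL and FRL arrays of a cohort overlapped for each tested member in both regions, and failed to overlap for 0.277% and 0.554% of all probesets in P/FC of cohorts 1 and 2 and for 0.236% and 0.573% in HIP. Kcnma1, the pore of the large-conductance calcium-activated (BK) channel, was -0.10 (adjusted p = 0.072), and its brain subunit Kcnmb4 was -0.04 (adjusted p = 0.60). Of the G-protein-gated rectifiers, Kcnj3 differed by 0.14, Kcnj6 by -0.02 and Kcnj9 by -0.01, none of which passed.

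Within single cohorts, 5 members passed an adjusted p of 0.05 in P/FC of cohort 1 and 1 in cohort 2, where 7.8% and 3.78% of all probesets did. In cohort 1 these were Kcnd2 and Kcnab1, which were higher (3.8% of all probesets were), and Kcnh3, Kcnc4 and Kcna2, which were lower (4.01% were). In cohort 2 it was Kcns2, which was higher (1.81% were, and 1.98% were lower). In cohort 1 the second probesets of Kcnc4 and Kcna2 went the other way. They differed by 0.26 (adjusted p = 0.15 in limma) and 0.07 (adjusted p = 0.69). The second probesets of Kcnd2 and Kcnab1 kept their direction there, with 0.15 and 0.88. At an unadjusted p under 0.05, 11 of the 56 members (19.6%) passed in each cohort, against 23.1% and 19.8% of all probesets. Those that passed over both cohorts and at an unadjusted p under 0.05 with the same sign in each were Kcnd2, Kcnd3 and Kcnh3, and 9.87% of all probesets did so. The cohorts' changes could be compared directly. The difference between them passed an adjusted p for 0 of the 56 members and for 0% of all probesets, and an unadjusted p for 8 members, all with the more positive change in cohort 2, where 4.63% of all probesets had such a p, 2.5% in that direction. The smallest unadjusted p values were for Kcnj3 (GIRK1), with -0.09 in cohort 1 and 0.37 in cohort 2, for Kcns1, given above, and for Kcnk1 (TWIK1), with -0.04 in cohort 1 and 0.32 in cohort 2.

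**Figure D2:**
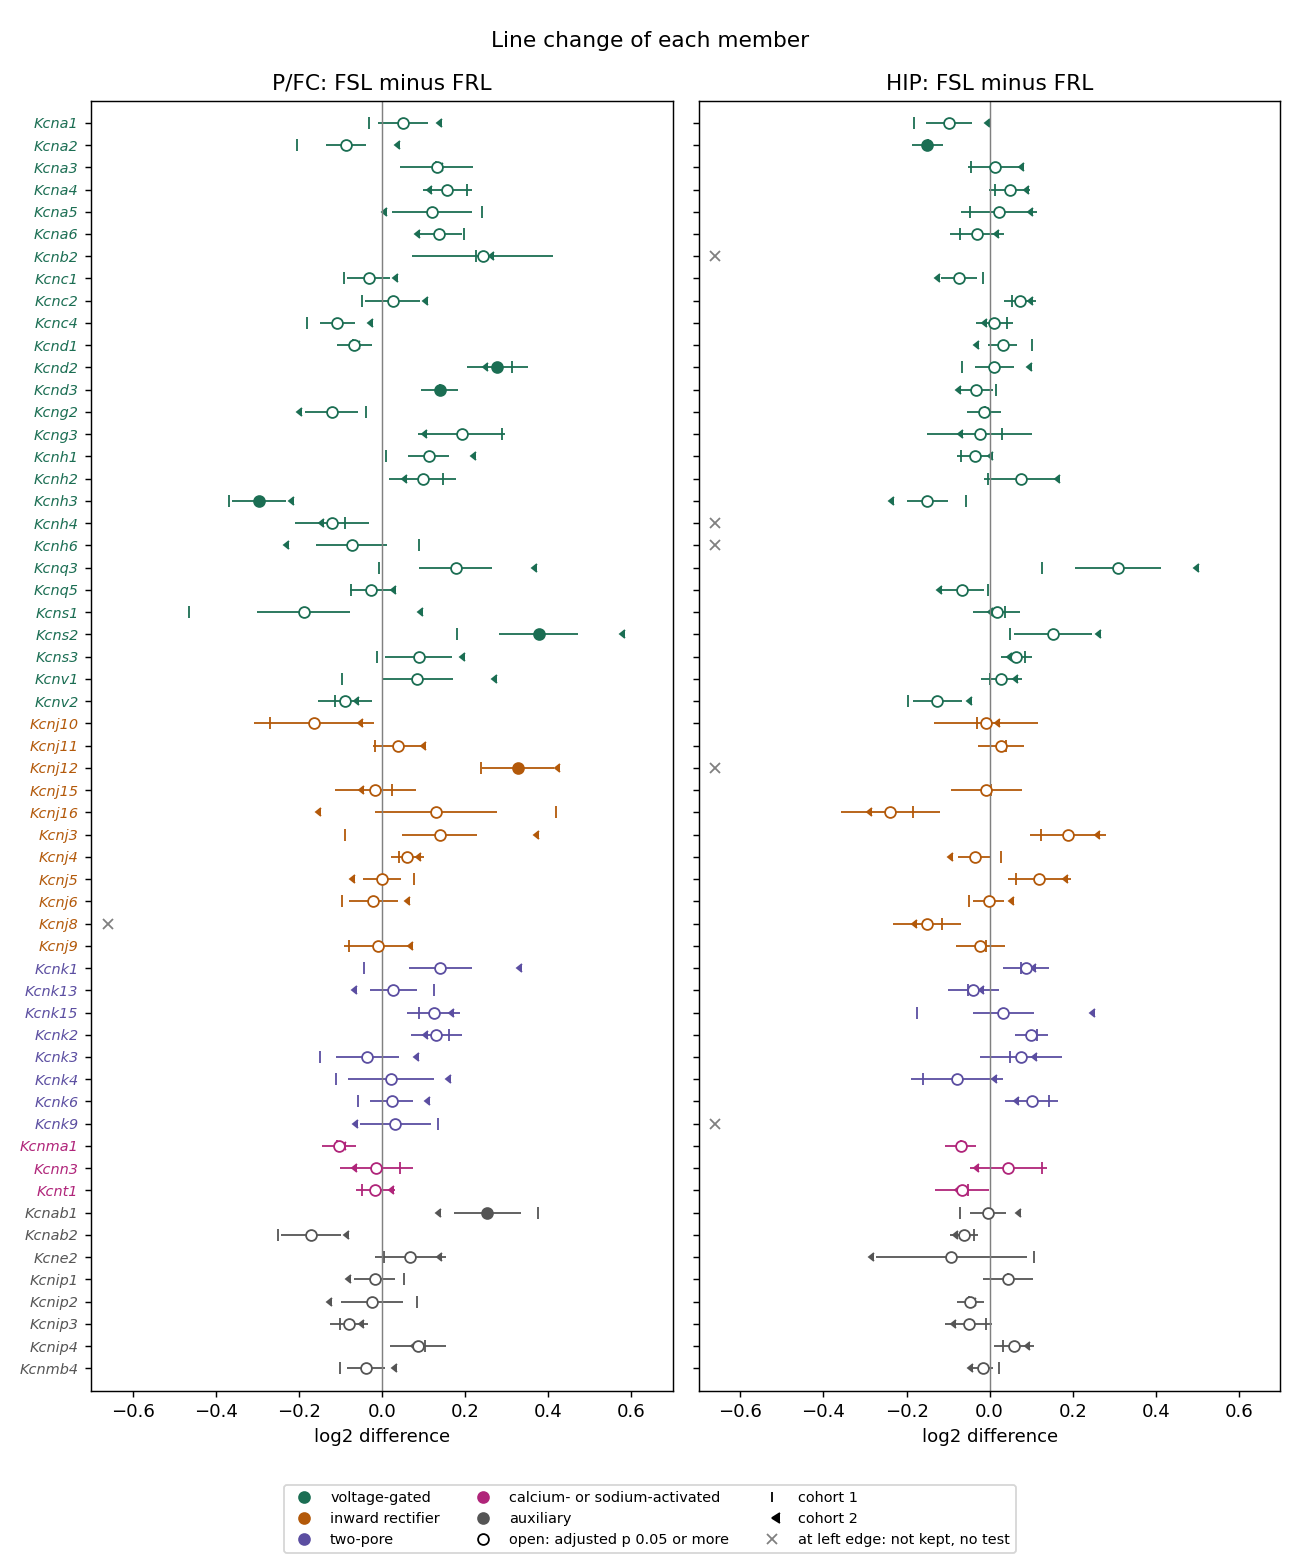
Circles give the FSL minus FRL difference over both cohorts on the log2 scale for each member, with bars of 1 SE, for P/FC on the left and HIP on the right, coloured by subfamily and filled where the adjusted p is under 0.05. Small marks give each cohort, and members that did not pass the filter have a cross at the left edge. The filled circles are 6 in P/FC and 1 in HIP, and the P/FC values span -0.30 to 0.38.

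Several measures of tissue makeup and RNA quality differed between the lines in P/FC, though the differences of scores, sums and ratios were not tested. The striatum score, the mean log2 level of 10 striatum markers (Drd1, Drd2, Adora2a, Penk and others) after centring each of them, had a median of 0.83 in FSL and -0.58 in FRL rats of cohort 1, and of 0.06 in FSL and -0.08 in FRL rats of cohort 2. The summed intensity of the list ran from 2607 to 7133 in FSL and from 2104 to 7310 in FRL rats of cohort 1, and from 2143 to 6934 in FSL and from 2080 to 7322 in FRL rats of cohort 2. Of the 10 markers, 2 were higher in FSL rats by the test and 8 did not pass, and the lowest P/FC array had 36.7 for Drd1, 18 for Drd2, 23.6 for Adora2a and 295 for Penk. Of 8 interneuron markers, 3 were higher and 0 lower in FSL rats, and their summed intensity ran from 4515 to 6462 in FSL and from 3679 to 5043 in FRL rats of cohort 1, and from 4497 to 5679.7 in FSL and from 4176 to 5431 in FRL rats of cohort 2. Of 4 cortical neuron markers, 2 were lower and 0 higher, with sums of 878 to 1617 in FSL and 1360.1 to 1937 in FRL rats of cohort 1, and of 1269 to 1547 in FSL and 1286 to 1671 in FRL rats of cohort 2. The vascular list (endothelial and mural, 8 markers) had 3 lower and 0 higher, and of 10 astrocyte markers 8 were lower and 0 higher. Of 7 thalamus markers 2 were higher and 1 lower, of 8 microglia markers 2 were lower, and of 4 hippocampal neuron markers 1 was higher. No choroid plexus, meninges or oligodendrocyte marker was called. Over all probesets 9.76% were higher and 8.86% lower. The part of these cells in the members' differences was not tested, beyond the striatum and meninges scores used as covariates. The log2 ratio of 3' to 5' Gapdh probesets, a sign of RNA integrity, averaged 0.74 in FSL and 0.83 in FRL rats of cohort 1, and 0.82 in FSL and 0.92 in FRL rats of cohort 2.

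After the mean of each group was taken out, the striatum score was set against the named members over the 39 P/FC arrays. Of the 35 named members tested, 8 had a positive and 9 a negative correlation at an adjusted p under 0.05 (permutation test with 100000 resamples, two-sided, adjusted over 37 relations). The weakest of these were r = 0.39 and r = -0.38, and 5.26% and 7.47% of all 22370 probesets had an r at least as far from 0, against 22.9% and 25.7% of the named members. The named members were chosen in part by their values, and these shares were not tested. Kcnab1 had r = 0.75 (p = 1e-05, the smallest these resamples can give, adjusted p = 6.2e-05) and rho = 0.76 (p = 1e-05, adjusted p = 9.2e-05), with r = 0.74 in cohort 1 and 0.77 in cohort 2, and 0.74 without the 2 arrays of most extreme score. Kcnd2 had r = 0.51 (permutation p = 0.00096, adjusted p = 0.0032) and rho = 0.47 (permutation p = 0.0035, adjusted p = 0.011), with 0.33 in cohort 1, 0.66 in cohort 2 and 0.39 without those 2 arrays. Kcnh3 had r = -0.56 (permutation p = 0.00018, adjusted p = 0.00074) and rho = -0.55 (permutation p = 0.00035, adjusted p = 0.0016), with -0.63 in cohort 1, -0.50 in cohort 2 and -0.50 without them. For Kcnd3 r was -0.11, for Kcns2 0.06 and for Kcnj12 -0.01, and none of these 3 passed. Kcns2 went opposite ways in the cohorts, with r = -0.51 in cohort 1 and 0.67 in cohort 2. Kcna2, called in P/FC of cohort 1 but not over both cohorts, had r = -0.57 (permutation p = 0.00015, adjusted p = 0.00069). Its r was -0.82 in cohort 1, -0.14 in cohort 2 and -0.45 without the 2 arrays of most extreme score.

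With the striatum and meninges scores as covariates, the P/FC calls numbered 3, Kcnh3, Kcnj12 and Kcns2. Over all 22370 probesets the calls numbered 2807 with these scores, against 4166 without a covariate. Kcnd2 then differed by 0.19 (adjusted p = 0.065), Kcnd3 by 0.13 (adjusted p = 0.053) and Kcnab1 by 0.12 (adjusted p = 0.19). With the Gapdh ratio as a covariate only Kcnh3 kept its call, and 853 of all 22370 probesets were called. Kcnd2 then differed by 0.15 (adjusted p = 0.33) and Kcns2 by 0.10 (adjusted p = 0.56), while Kcnj12 differed by 0.33 (adjusted p = 0.066), Kcnd3 by 0.16 (adjusted p = 0.077) and Kcnab1 by 0.22 (adjusted p = 0.23), close to their values without it.

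**Figure D3:**
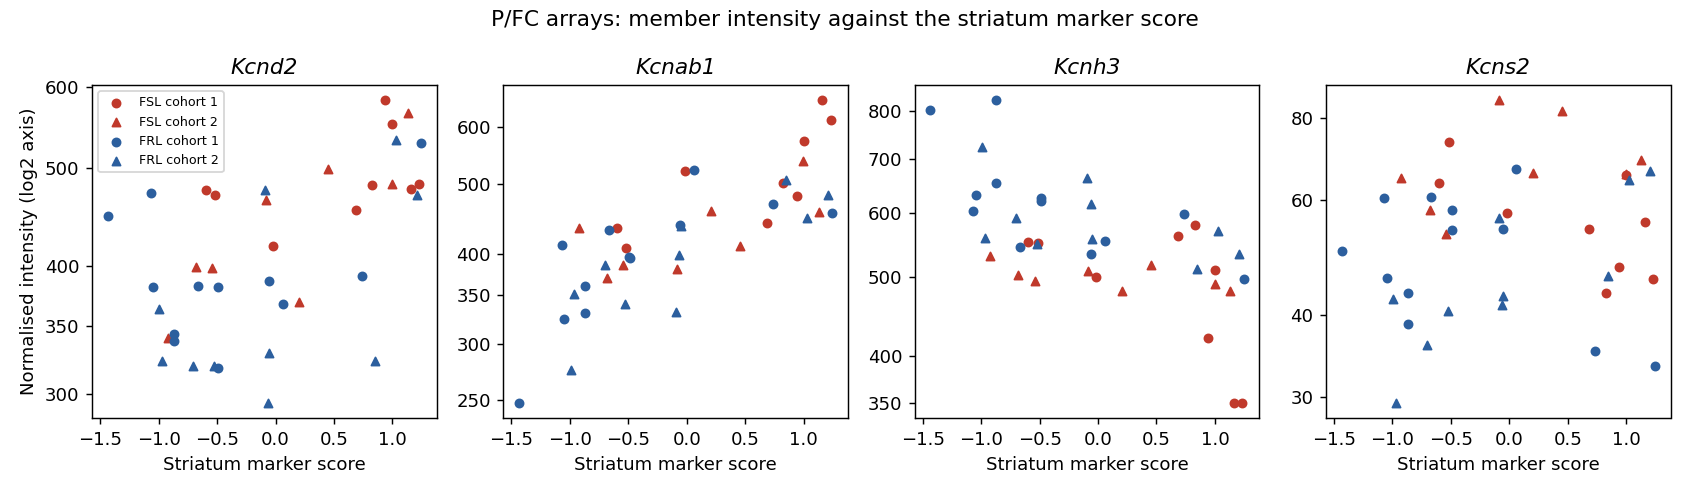
Each point is 1 P/FC array, with the striatum marker score on the horizontal axis and the normalised intensity of Kcnd2, Kcnab1, Kcnh3 or Kcns2 on a log2 vertical axis, FSL in red and FRL in blue, circles for cohort 1 and triangles for cohort 2. Kcnab1 climbs and Kcnh3 declines along the score, and Kcns2 shows no single slope.

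In HIP, 1 of the 52 members tested was called over both cohorts, Kcna2, which was lower in FSL rats, where 7.33% of all 21630 probesets were called, 3.2% higher and 4.13% lower. Kcna2 (Kv1.2), a delayed rectifier of axons, ran from 549 to 716 with a median of 619 in FSL rats and from 639 to 767 with a median of 693 in FRL rats of cohort 1, and from 609 to 700.03 with a median of 644 in FSL rats and from 633 to 932 with a median of 710 in FRL rats of cohort 2. The ranges overlapped, but 8 of 9 and 8 of 8 FSL arrays lay below the FRL median. The difference was -0.15 ± 0.04 (adjusted p = 0.0079), with -0.15 in each cohort (unadjusted p = 0.0056 and 0.0082 in limma). It was thus the only HIP member to pass over both cohorts and at an unadjusted p in each, as 4.68% of all probesets did. At an unadjusted p over both cohorts, 6 of the 52 (11.5%) passed, against 21.1% of all. In P/FC the same probeset differed by -0.20 ± 0.07 in cohort 1 (adjusted p = 0.049) and 0.03 ± 0.07 in cohort 2 (adjusted p = 0.86). The second probeset of Kcna2 went the other way in HIP, by 0.08 (adjusted p = 0.53). The Actb 3' to 5' ratio averaged 0.60 in FSL and 0.72 in FRL rats of cohort 1 in HIP, and 0.73 in FSL and 0.82 in FRL rats of cohort 2. With it as a covariate Kcna2 differed by -0.12 and was no longer called (adjusted p = 0.26). Over all 21630 probesets the HIP calls numbered 442 with this covariate, against 1586 without it.

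Kcnq3, a subunit of the M-current that restrains repetitive firing, had the largest difference in HIP, 0.31 ± 0.10 (adjusted p = 0.058), and is named for that value. It ran from 33.7 to 77.5 with a median of 63.0 in FSL rats and from 35.7 to 75.0 with a median of 49.6 in FRL rats of cohort 1, and from 44.1 to 67.9 with a median of 52.2 in FSL rats and from 28.3 to 49.0 with a median of 38.3 in FRL rats of cohort 2. The lines overlapped in both cohorts. The second probeset of Kcnq3 did not show this difference in HIP, at -0.02 (adjusted p = 0.92 in limma), with -0.15 in cohort 1 and 0.11 in cohort 2. In single cohorts 0 members passed an adjusted p in HIP, where 2.36% of all probesets did in cohort 1 and 2.33% in cohort 2, and 5 of 52 an unadjusted one in each, as 14.5% and 13.8% of all did. The change differed between cohorts at an adjusted p for 0 members, and at an unadjusted p for 1, Kcnk15, a two-pore channel of the TASK group, with -0.18 in cohort 1 and 0.24 in cohort 2. All probesets gave 0% and 4.33%. The median of the members was -0.01 and that of all probesets 0.00.

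The line change itself was compared between the regions for the 51 members kept in both. It passed an adjusted p for 0 of them, as for 0.0668% of all 20963 probesets. It passed an unadjusted p for 5 (9.8%), all with the more positive change in P/FC. Of all probesets 7.94% had such a p, 1664 in number, of which 881 had the more positive change in P/FC. After Kcnd2 the members with the smallest p were Kcnd3, with a P/FC change 0.17 ± 0.06 above that of HIP (adjusted p = 0.43), and Kcnab1, with 0.26 ± 0.09 (adjusted p = 0.43). An effect called in P/FC and not in HIP was therefore not shown to differ between them.

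Kcnj10 (Kir4.1) and Kcnj16 (Kir5.1) form the channel by which astrocytes buffer potassium. Over all probesets 8.86% were lower in FSL rats in P/FC and 4.13% in HIP. Of 10 astrocyte markers, 8 were lower in P/FC and 6 in HIP of FSL rats and none was higher, and their summed intensity ran from 14854 to 17662 in FSL and from 14762 to 22455 in FRL rats over both cohorts in P/FC. Kcnj10 ran from 26.2 to 82.0 in FSL and from 35.2 to 86.6 in FRL rats of cohort 1 in P/FC, and from 36.7 to 84.6 in FSL and from 28.5 to 100.4 in FRL rats of cohort 2. It differed by -0.16 ± 0.15 (adjusted p = 0.47), beside a median of -0.25 over the astrocyte markers, and the part of those cells in it was not tested. Kcnj16 differed by 0.42 in cohort 1 and -0.16 in cohort 2 (adjusted p = 0.59 over both). Kcnj8 (Kir6.1), of pericytes and smooth muscle, passed the filter in HIP alone, where it differed by -0.15 (adjusted p = 0.285), while of 8 endothelial and mural markers 1 was lower there and 7 did not pass.

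Kcne2, a small subunit that is abundant in choroid plexus, varied most among the members in HIP, with a coefficient of variation of 56.5% against a median of 13.1% over the members. It ran from 39.7 to 179 with a median of 53.2 in FSL rats and from 31.1 to 149 with a median of 52.9 in FRL rats of cohort 1, and from 31.7 to 54.3 with a median of 44.9 in FSL rats and from 38.6 to 112 with a median of 50.7 in FRL rats of cohort 2. The choroid plexus score (7 markers) fell into separate ranges over the HIP arrays, 1.30 to 2.79 on 6 arrays, 2 from FSL and 4 from FRL rats, and -0.94 to 0.40 on the other 33. Kcne2 had 81.4 to 179 on those 6 and 31.1 to 65.1 on the 33, so that the ranges do not meet, and no pooled correlation is given. Within the 33 arrays r was 0.36 (permutation p = 0.038, adjusted p = 0.079) and rho 0.38 (permutation p = 0.032, adjusted p = 0.069), with 0.28 without the 2 arrays of most extreme score, 0.56 in cohort 1 and 0.22 in cohort 2. Kcnj13 (Kir7.1), also known from choroid plexus, was below the intensity limit for members and ran from 14.8 to 26.6 on the 6 arrays and from 9.89 to 28.3 on the 33.

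Of the proteins that bind or accompany these channels, 14 channel partners were tested. In P/FC 4 of them were higher in FSL rats, 0 lower and 10 did not pass, where 9.76% of all probesets were higher and 8.86% lower. Dpp10, a partner of Kv4 channels that speeds their gating, was 0.21 ± 0.06 higher (adjusted p = 0.0074), Amigo1, a partner of Kcnb channels, 0.11 ± 0.03 (adjusted p = 0.0051), Adam23, an axonal and synaptic binding partner of Lgi1, 0.15 ± 0.03 (adjusted p = 0.0022), and Lgi1, a secreted protein that acts on Kcna channels, 0.16 ± 0.06 (adjusted p = 0.039). Dpp6, the other Kv4 partner, differed by 0.02 (adjusted p = 0.78). In HIP 0 of the 14 passed an adjusted p in limma, where 7.33% of all probesets did. Each partner was read by its brightest probeset alone. By that probeset Cntnap2 did not pass, at 0.10 in P/FC (adjusted p = 0.061) and -0.04 in HIP (adjusted p = 0.50). The paper, however, lists other Cntnap2 probesets among those most raised in FSL rats, in both regions. None of the 3 HCN channels measured, the cation channels of the hyperpolarisation-activated current, passed in either region. Of 6 pumps and cotransporters, Atp1b2, the beta subunit of the sodium-potassium pump that is rich in astrocytes, was lower in FSL rats in both regions, with differences of -0.25 ± 0.06 in P/FC (adjusted p = 0.0052) and -0.12 ± 0.03 in HIP (adjusted p = 0.025), and the other 5 did not pass.

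Between regions the differences were much larger than between lines. Of the 51 members kept in both, 29 were higher in P/FC and 15 in HIP at an adjusted p under 0.05, or 86.3%, where 69.6% of all 20963 probesets were called, 48.5% higher in P/FC and 21.1% higher in HIP. After quantile normalisation the split was 27 and 17 for the members and 31.1% and 34.3% for all probesets, since that scaling moved the median of all from 0.08 to -0.01. The regions' arrays did not overlap for 10 members, Kcnv1, Kcnt1, Kcnk2, Kcnh1, Kcna6, Kcnmb4 and Kcnj4, which were higher in P/FC, and Kcng2, Kcnip2 and Kcnj6, which were higher in HIP, and for 2.95% of all probesets. HIP and P/FC were handled as separate tissues, and a handling difference and a region difference cannot be told apart.

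Among those higher in P/FC, Kcnv1 (Kv8.1), a silent subunit that modifies Kcnb channels, ran from 343 to 741 with a median of 603 in P/FC and from 177 to 303 with a median of 232 in HIP, a difference of 1.37 ± 0.05 (adjusted p = 2.5e-38). Kcnt1 (Slack), a sodium-activated channel, ran from 166 to 275 with a median of 221 in P/FC and from 61.1 to 131 with a median of 88.8 in HIP, a difference of 1.29 ± 0.04. Neither pair of ranges met. Kcnk2 (TREK1), a two-pore channel opened by stretch and lipids, had 185 to 335 in P/FC and 109.6 to 157 in HIP (1.00 ± 0.04), and Kcnh1 had 253 to 397 in P/FC and 127 to 217 in HIP (0.91 ± 0.03). The others with a large difference were the silent subunit Kcng3 with 1.06, the two-pore channels Kcnk4 (TRAAK) with 1.02 and Kcnk1 with 0.88, and Kcna5 (Kv1.5) with 0.90. Kcnk3 (TASK1) was close to the same in both regions by its brightest probeset, at -0.03 ± 0.06. Of the 7 two-pore members tested, 5 were higher in P/FC, 0 in HIP and 2 did not pass, each by its brightest probeset. Of all probesets 48.5% were higher in P/FC and 21.1% in HIP. By its second probeset Kcnk2 was higher in HIP, at -0.49 (adjusted p = 4.1e-13 in limma), and Kcnk3 was higher in P/FC, at 0.32.

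Among those higher in HIP, Kcng2 (Kv6.2), another silent subunit, ran from 82.3 to 157 with a median of 104 in P/FC and from 216 to 371 with a median of 284 in HIP, a difference of -1.41 ± 0.04 (adjusted p = 1.4e-46). Kcnip2 (KChIP2), a calcium-binding subunit of Kv4 channels, ran from 319 to 556 with a median of 385 in P/FC and from 668 to 884 with a median of 758 in HIP, a difference of -0.94 ± 0.04. Kcnab2, the main brain beta subunit of Kcna channels, had 485 to 1107 in P/FC and 1088 to 1519.6 in HIP (-0.85 ± 0.04), and Kcnj6 (GIRK2), a G-protein-gated rectifier, 242 to 417 in P/FC and 423 to 659 in HIP (-0.65 ± 0.03). Kcna1 and Kcna4, which join Kcna2 in axonal channels, were -0.50 and -0.34. Kcnd2 and Kcnab1 had region differences of -0.48 and -0.39.

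Members known to assemble with each other did not all share 1 direction. In the Kv4 complex Kcnd2 and Kcnip2 were higher in HIP, while Kcnip1, at 0.27, and Kcnip4, at 0.51, were higher in P/FC. Kcnd3 was at -0.02 and did not pass, but after quantile normalisation it was called higher in HIP, at -0.10. Kcnip3 did not pass. Of the partners Dpp6 was higher in HIP, at -0.31, and Dpp10 in P/FC, at 2.32. In the BK channel the pore gene Kcnma1 was slightly higher in HIP, at -0.12 ± 0.03, and Kcnmb4 higher in P/FC, at 691 to 1062 in P/FC and 484 to 638 in HIP (0.75 ± 0.03). In the G-protein-gated group Kcnj6 was higher in HIP, Kcnj9 by 0.28 higher in P/FC, and Kcnj3 did not pass. Kcnj4 (Kir2.3), a strong rectifier of forebrain neurons, was 0.70 ± 0.03 higher in P/FC. The subfamily medians were 0.24 for voltage-gated, 0.15 for inward rectifier, 0.60 for two-pore, 0.39 for calcium- or sodium-activated and -0.11 for auxiliary members, beside 0.08 for all probesets.

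**Figure D4:**
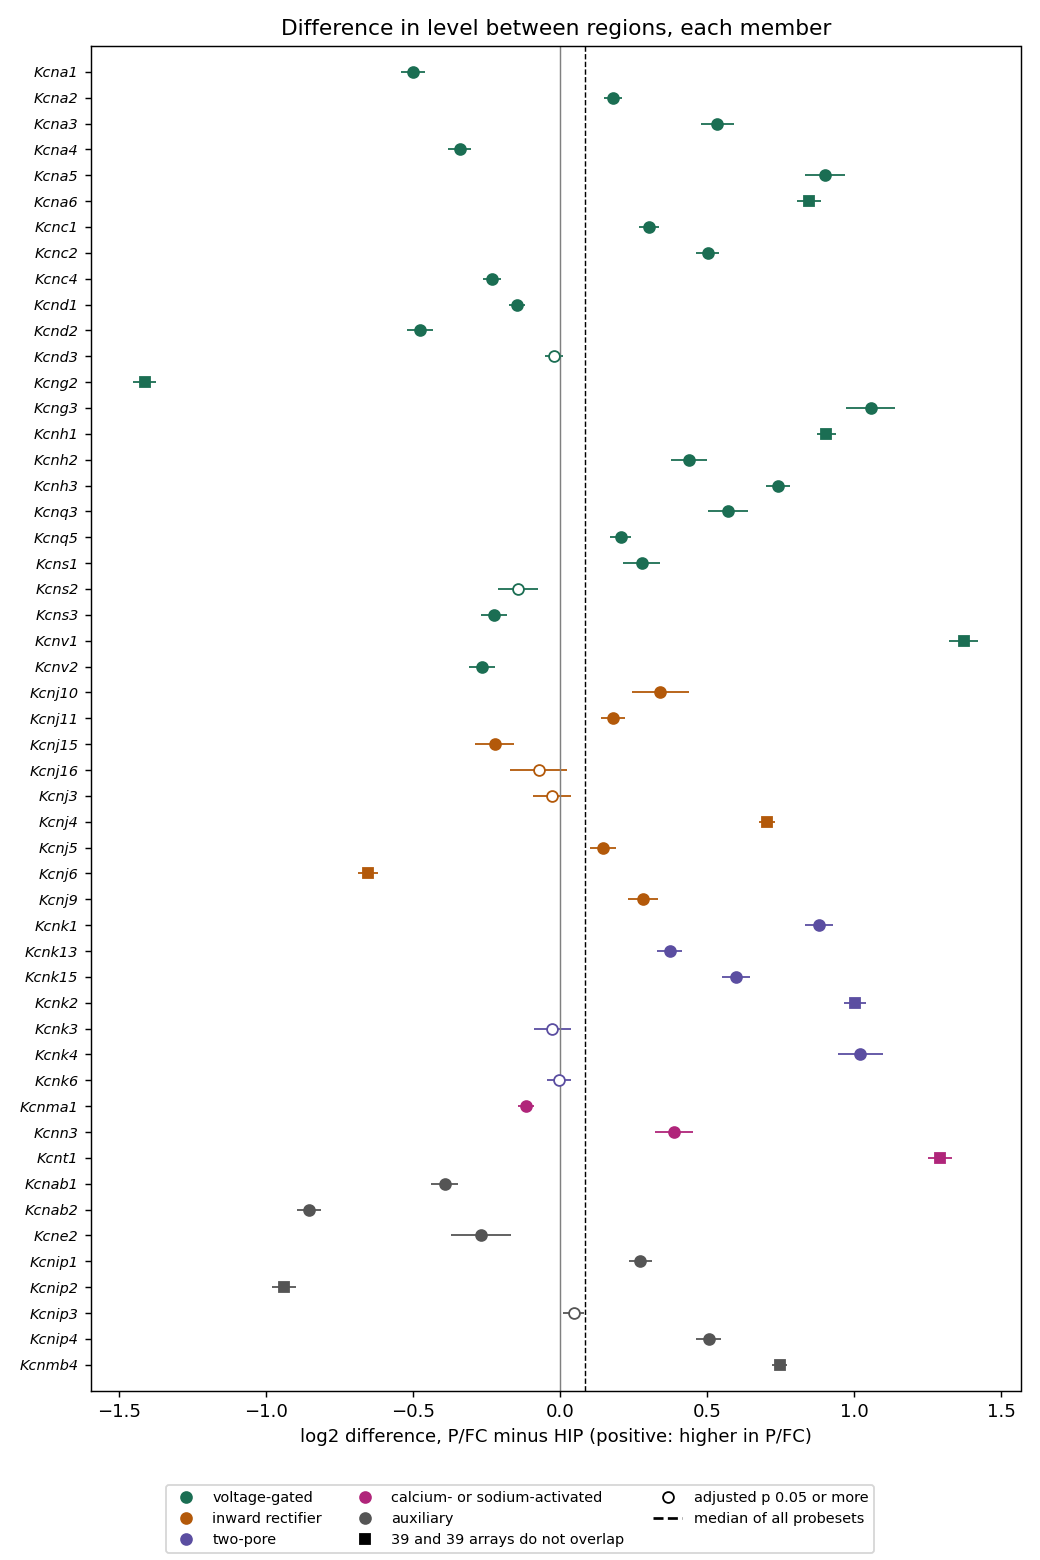
Points give the P/FC minus HIP difference on the log2 scale for the 51 members tested, with bars of 1 SE, coloured by subfamily, as squares where the 39 arrays of P/FC and the 39 of HIP do not overlap and open where the adjusted p is 0.05 or more, and the dashed line marks the median of all probesets, 0.08. Kcnv1 and Kcnt1 lie farthest to the P/FC side and Kcng2 and Kcnip2 farthest to the HIP side. No two-pore member is called on the HIP side by its brightest probeset, the one drawn.

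The arrays carry more than 1 probeset for 29 of the 57 members, and these did not always give the same reading. Of the 49 other probesets 38 passed the filter in P/FC, where 7, of 6 genes, were higher in FSL rats and 0 lower, beside 9.76% higher and 8.86% lower over all probesets. In HIP 38 passed the filter and 1 was higher and 0 lower, beside 3.2% and 4.13%. In P/FC the second probeset of Kcnab1 had the largest difference, 0.78 ± 0.16 (adjusted p = 0.00052). It ran from 177 to 269 with a median of 209 in FSL rats and from 67.7 to 178 with a median of 123 in FRL rats of cohort 1, and from 111 to 249 with a median of 176 in FSL rats and from 54.9 to 244 with a median of 89.8 in FRL rats of cohort 2. In cohort 1 the lines overlapped only between 177 and 178. In HIP, too, this probeset was higher in FSL rats, by 0.50 (adjusted p = 0.014), whereas the brightest probeset of Kcnab1 was at -0.0037 (adjusted p = 0.97). The second probeset of Kcnd3 differed by 0.32 ± 0.07 in P/FC (adjusted p = 0.0011) and by 0.20 in HIP (adjusted p = 0.055), and that of Kcnd2 was 0.18 ± 0.08 in P/FC (adjusted p = 0.0815). The other probesets that passed were of Kcnip4 with 0.41, Kcnj4 with 0.24, Kcna6 with 0.39 and Kcnc2 with 0.40 and 0.31, genes whose brightest probeset did not pass.

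For the region difference, 23 members had 2 or more probesets kept in both regions, of which 14 had the same sign in all and 9 had mixed signs. The mixed ones were Kcnc2, Kcnc4, Kcnd3, Kcnj3, Kcnj6, Kcnk2, Kcnk3, Kcnq3 and Kcnq5. Kcnk2 was the widest, with 1.00 at its brightest probeset and -0.49 at the second (adjusted p = 4.1e-13). The second probeset of Kcnj6 gave 0.08 against -0.65 at the brightest, and that of Kcnk3 gave 0.32 against -0.03. Kcng2 and Kcnt1 kept their direction in each kept probeset, Kcng2 with -0.62 and Kcnt1 with 0.70 and 0.17 in the others, while Kcnv1, Kcng3, Kcnk4, Kcnh1, Kcna5 and Kcnk1 have 1 probeset each.

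**Figure D5:**
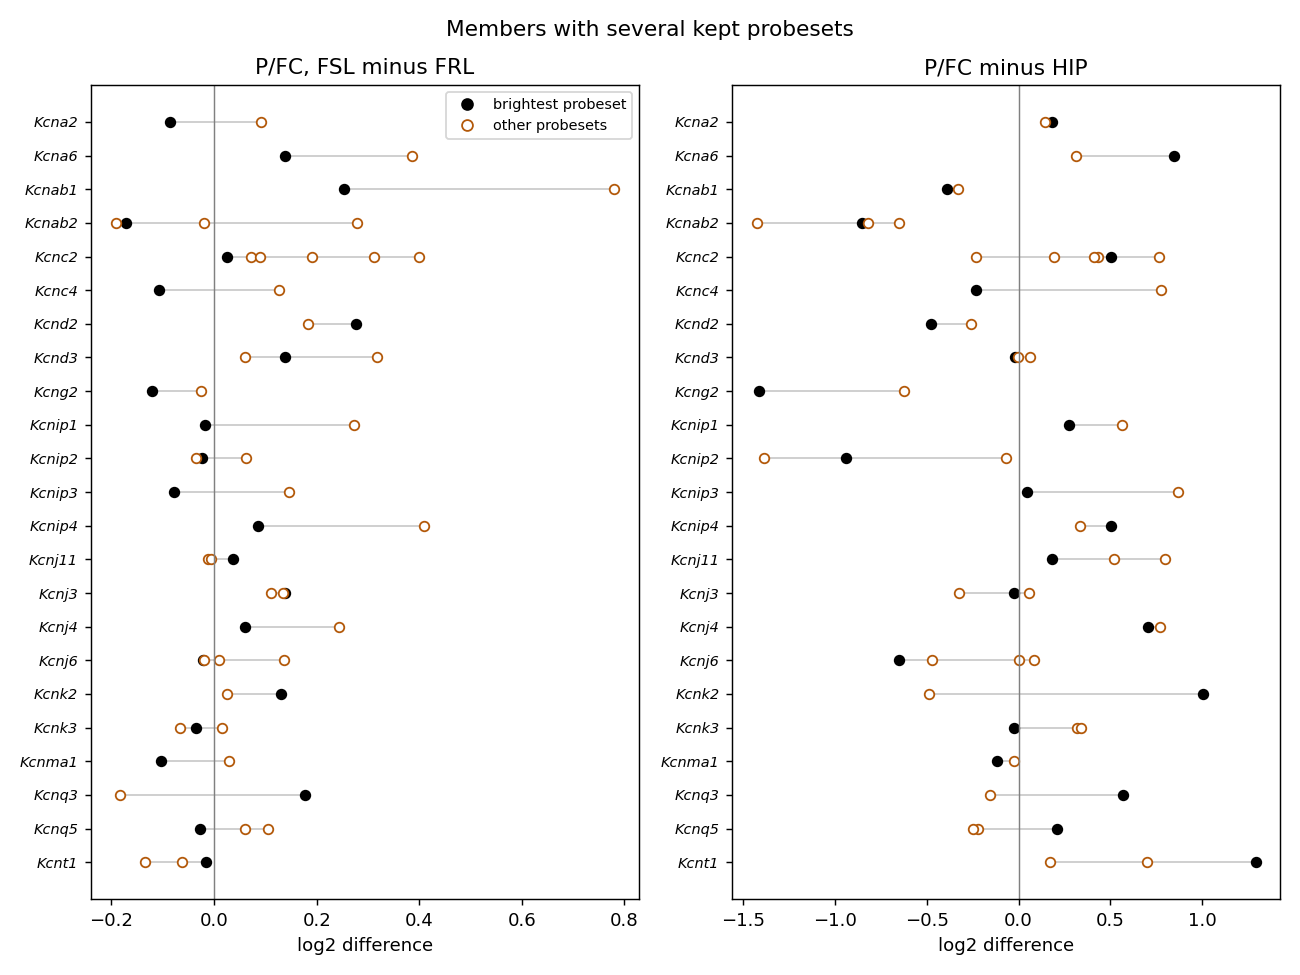
For each member with several kept probesets, the black point is the brightest probeset and the open points are the others, joined by a line, with the log2 difference of FSL minus FRL in P/FC on the left and of P/FC minus HIP on the right. On the left the open points of Kcnab1 (0.78) and Kcnip4 (0.41) lie far right of the black ones, and on the right those of Kcnk2 (-0.49) and Kcnc4 fall on the other side of 0.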

How the data were processed

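RNA of P/FC and HIP was hybridised to 78 Affymetrix rat arrays. The authors normalised the arrays with Rosetta Resolver 5.1, and the deposited values are linear intensities after background subtraction, 1 for each probeset. Before log2 was taken, intensities under 1 were raised to 1. A probeset was kept in a region if it exceeded 30 in 50% or more of the FSL and of the FRL arrays there. Line and cohort groups were fitted in each region by limma 3.58.1 (R 4.3.3), and all 78 arrays together for the region difference, with Benjamini-Hochberg adjustment over all kept probesets. The fit across regions took the arrays as independent, although both regions came from the same rats. The authors' model also had the labelling batch, which was not used here. Arrays number 8 to 12 a group, which limits the precision. The procedure was tested on simulated data. Symbols come from the array annotation, and all 57 members matched a RefSeq gene.

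Named genes are the members called over both cohorts and at p under 0.05 in each, the 3 brightest of each subfamily, the 8 with the largest region difference either way, the 3 with the smallest p for each difference of line changes, and Kcnj10, Kcnj16, Kcnj8, Kcnj13 and Kcne2. Kcns2, Kcnj12, Kcnq3 and others named for a value or a partner were chosen after their values were seen. The members and lists were chosen with earlier results of these data known. The alternatives were other filters, quantile normalisation, 16 added before the logarithm, plain analysis of variance, other probesets, covariates and a replicate block. Permutation tests used numpy 2.4.6 in Python 3.11.15, and figures matplotlib 3.10.9.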

Additional observations from a re-analysis of the deposited data

Results flagged for a closer look

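In 17 of the 210 groups tested over 35 named members, the highest or lowest array lay far from the others by Dixon's criterion, where chance alone flags about 5% of groups. The FRL groups of cohort 1, with 12 arrays each, are too large for this criterion and were not tested. None of these was left out, and no cause was tested. The flagged Kcne2 array in HIP had a choroid plexus score of 2.35 and is 1 of the 6 with a high score described above.

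In P/FC these were Kcng3 in an FRL array of cohort 2 (113, the others 46.3 to 81.6), Kcnj16 in an FSL array of cohort 2 (50.5, the others 24.9 to 36.4), Kcnma1 in an FSL array of cohort 1 (151, the others 186 to 211), Kcnn3 in an FSL array of cohort 1 (82.9, the others 44.2 to 59.9) and Kcnv1 in an FSL array of cohort 2 (553, the others 669 to 741).

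In HIP of FSL rats they were Kcna5 (58.2, the others 25.9 to 41.5), Kcnd3 (166, the others 201 to 228) and Kcnh1 (217, the others 160.0 to 185) in cohort 1, and Kcnd1 (118, the others 95.9 to 106), Kcnk1 (156, the others 110.1 to 125) and Kcnv1 (273, the others 204 to 232) in cohort 2. In HIP of FRL rats of cohort 2, the FRL cohort tested, they were Kcna2 (932, the others 633 to 756), Kcnd2 (381, the others 512 to 653), Kcne2 (112, the others 38.6 to 59.96), Kcnj12 (16.1, the others 23.6 to 29.5), Kcnk4 (85.3, the others 37.4 to 59.1) and Kcnn3 (52.8, the others 27.3 to 39.02).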

How the results depend on the processing

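The 6 P/FC calls numbered 5 to 9 under the other settings, except 1 with the Gapdh ratio and 3 with the tissue marker scores as covariates. Over all 22370 probesets the calls numbered 853 and 2807 with those covariates, against 4166 in the main fit. Some members were called in P/FC only outside the main fit. Kcnma1 was called with a minimum of 100 and after quantile normalisation. Kcna4, Kcna6 and Kcnc4 were called with that minimum, and Kcna4 and Kcnab2 with the first residual component. Kcna6, Kcnip4 and Kcnj4 were called with the mean of all probesets and with the second brightest. The single HIP call became 2 with a minimum of 100 (Kcna2 and Kcnh3) and 2 after quantile normalisation (Kcna2 and Kcnq3). It became 3 with the first residual component (Kcna2, Kcnh3 and Kcnq3). The tissue marker scores used in HIP were those of choroid plexus and thalamus, and gave 2 (Kcna2 and Kcnh3). With the Actb ratio it became 0, where 442 of all 21630 probesets were called, against 1586 in the main fit. The cause was not tested. With the mean of all probesets, and with the second brightest, the only HIP call was Kcnab1. Some signs turned among named members called in the main fit or under the alternative. These were Kcna2 in HIP at the second probeset (0.078) and Kcnab1 in HIP with the mean (0.25) and the second (0.50). Between regions they were Kcnj6 (0.084) and Kcnk2 (-0.49) at the second and Kcnk3 with the mean (0.21) and the second (0.32). Other signs turned without a call in either setting. Examples are Kcnd3 in HIP with the mean (0.093) and the second (0.20), and Kcna2 in P/FC at the second (0.091). Arrays with the same replicate number did not deviate together in every pair (r over 0.1 for 16 of 34 arrays in HIP, 20 of 34 in P/FC and 20 of 78 between regions), and 7, 9 and 12 correlated best with their own number. With the replicate block the calls numbered 6 in P/FC, 2 in HIP (Kcna2 and Kcnh3) and 44 between regions. The number of arrays limits what differences could be seen.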
